A study of Mus musculus with 2 samples.

Results

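The ligands of the tumour necrosis factor (TNF) superfamily were compared between CD5-positive gamma delta T cells sorted from spleens of LAT3YF mice and of wildtype mice. The members were all genes whose symbol starts with Tnfsf in the platform annotation and that had a probe annotated to that gene alone. This gave 8 genes out of 4331 measured, covered by 9 probes: Tnfsf4, Tnfsf8, Tnfsf9, Tnfsf10, Tnfsf11, Tnfsf12, Tnfsf13b and Tnfsf14. RefSeq lists 13 genes with such a symbol, 12 of them protein coding, and Tnfsf13, Tnfsf15, Tnfsf18, Tnfsfm13 and the noncoding Tnfsf13os had no such probe. Every gene with a usable probe was kept, whatever its value.

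LAT, a membrane adaptor, links the T cell receptor to downstream signalling, and in LAT3YF tyrosines of the adaptor are replaced by phenylalanines. CD5 is a T cell surface glycoprotein, through which cells of both genotypes were isolated. The series holds 2 two-channel arrays of total RNA, each with LAT3YF cells in 1 channel and wildtype cells in the other, and with the dyes of the second array reversed relative to the first. Not given in the sources used here are the ages of the mice, the number of animals behind each RNA and any treatment.

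Ligands of the TNF superfamily are mostly membrane-anchored trimers, some of which are shed, and they act on neighbouring cells that carry the matching receptor. The receptors either recruit TRAF adaptors, which feed into NF-kB and MAP kinase signalling, or carry a death domain that can start apoptosis. T cells induce several of these ligands after activation and use them to costimulate other lymphocytes, to kill target cells and to signal to B cells, dendritic cells and stroma. Myeloid cells and stromal cells make some of the same ligands.

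Values are log ratios of the 2 channels, read as log10. The - polarity array was multiplied by -1 (turned), so that a positive value stands for the same population on both arrays. The labels do not say which dye was which, or which channel was the numerator, so the sign of LAT3YF is not known, and positive and negative sides are given here without a population. The 2 arrays were counted as 1 replicate, because nothing in the labels gives them separate animals or extracts. No test of LAT3YF against wildtype could be made. Each SD is over the 2 arrays and cannot be taken to cover variation between animals. The deposited columns had medians of -0.00284 (+ polarity) and 0.00101 (- polarity) and a Pearson correlation of -0.301 across 8014 probes. The arrays give a ratio and no level, so the cell type could not be checked by how strongly its markers were expressed, and fewer cells of a type cannot be told apart from less RNA per cell.

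The Tnfsf genes lay mostly on 1 side. After turning, 7 of the 8 had a positive ratio on both arrays, and Tnfsf12 had a negative ratio on both, whereas 1310 of all 4331 genes (30.2%) were positive on both. The median of the 8 mean ratios was 0.263, against 0.00231 over all measured genes. Genes were called where the mean ratio reached 2-fold in either direction (a log10 ratio of 0.301 or more in size) with 1 sign on both arrays. By this rule 4 of the 8 Tnfsf genes were called on the positive side and 0 on the negative side, where 8.75% of all genes were called in either direction, 3.72% on the positive side and 5.03% on the negative side. The called genes were Tnfsf13b, Tnfsf9, Tnfsf10 and Tnfsf11. The rule is one of size and not a test, and the 8 genes were singled out with earlier results of these arrays known.

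**Figure D1:**
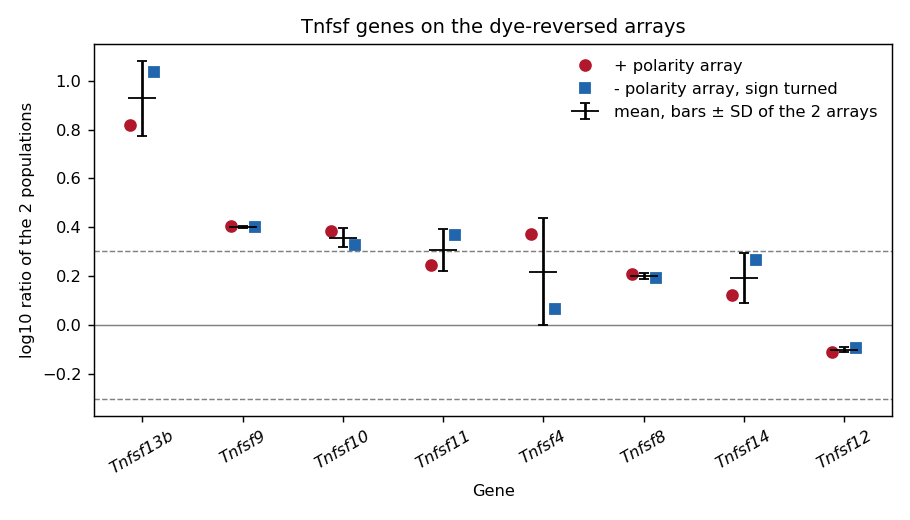
The log10 ratio of each Tnfsf gene (vertical axis) on the + polarity array (circles) and on the turned - polarity array (squares), with the mean (horizontal mark) and ± SD of the 2 arrays; dashed lines mark 2-fold. Tnfsf13b stands highest at 0.820 and 1.04, Tnfsf12 is the one gene below 0, and the 2 arrays are farthest apart for Tnfsf4.

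The promoters of the called genes are shown because these genes lay on the same side of the comparison. RefSeq sequence (GRCm38.p6) was at hand for 5 of the 8 genes, and Tnfsf4, Tnfsf9 and Tnfsf12 are named only. Each stretch is the 250 bases before a transcription start, 5′ to 3′ on the gene's strand. Capitals mark the motifs that were found. The Tnfsf13b stretch (chr8:10006383-10006632, + strand) lies before the second of its 2 listed starts, Tnfsf10 is chr3:27316827-27317076 on the + strand and Tnfsf11 is chr14:78308044-78308293 on the - strand.
Tnfsf13b: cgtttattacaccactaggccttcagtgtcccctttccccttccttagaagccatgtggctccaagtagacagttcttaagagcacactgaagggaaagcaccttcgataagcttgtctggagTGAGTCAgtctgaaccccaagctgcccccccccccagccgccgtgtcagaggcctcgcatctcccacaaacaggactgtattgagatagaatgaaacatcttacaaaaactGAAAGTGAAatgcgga
Tnfsf10: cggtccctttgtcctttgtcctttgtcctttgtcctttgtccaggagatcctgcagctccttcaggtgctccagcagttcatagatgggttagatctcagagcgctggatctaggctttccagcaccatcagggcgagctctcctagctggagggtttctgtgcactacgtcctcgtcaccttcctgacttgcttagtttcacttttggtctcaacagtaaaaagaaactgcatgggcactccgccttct
Tnfsf11: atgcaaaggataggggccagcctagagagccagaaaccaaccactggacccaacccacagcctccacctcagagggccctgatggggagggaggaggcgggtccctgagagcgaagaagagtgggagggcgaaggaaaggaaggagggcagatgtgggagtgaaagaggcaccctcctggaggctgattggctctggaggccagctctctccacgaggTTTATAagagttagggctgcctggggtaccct

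Both strands of these windows were searched for 7 motifs, and no 2 matches overlapped. The Tnfsf13b window held the AP-1 motif TGANTCA between 127 and 121 bases before the start, which 6.75% of 32851 RefSeq promoter windows of the same length also held. It also held the interferon response motif GAAANNGAA between 16 and 8 bases before the start (7.13% of windows). The window before the other Tnfsf13b start held the GATA motif AGATAA on the opposite strand (9.99% of windows). In the Tnfsf11 window the TATA motif TATAAA was read on the opposite strand between 32 and 27 bases before the start (12.4% of windows). The Tnfsf10 window held none of the 7, and of the genes that were not called, Tnfsf14 held the AP-1 motif and Tnfsf8 the interferon response motif. The other motifs searched were the STAT motif TTCNNNGAA (7.02% of windows), the NF-kB motif GGNNTTTCC (4.93%) and the NFAT motif GGAAAA (20.4%), and no Tnfsf window held any of these. A match describes letters in a window, and binding was not measured here.

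Tnfsf13b encodes BAFF, the survival factor of B cells that also costimulates T cells. Its log10 ratio was 0.820 on the + polarity array (6.60-fold) and 1.04 on the turned - polarity array (10.9-fold). Both arrays placed it far above the other Tnfsf genes, and the mean of 0.928 ± 0.153 (8.47-fold) ranked 11th from the top of all 4331 genes. The distance of either turned array from their mean, called the dye component here, was 0.108 in size for this gene. It comes from the same difference as the SD, and cannot separate an effect of the dye from other error of the arrays. Over all genes the median size of that dye component was 0.0410, and in 0.0231% of genes it was as large as the mean ratio of Tnfsf13b.

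Tnfsf9 encodes the ligand of CD137, a costimulatory receptor of activated T cells and NK cells. The ratio was 0.404 on the + polarity array and 0.400 on the turned - polarity array. It had the smallest SD of the 8, with a mean of 0.402 ± 0.00269 (2.52-fold), and a spread at least as wide was found in 97.2% of genes. That SD rests on 2 values of 1 probe, which cannot show how repeatable the gene is. Its mean ranked 86th, and 1.87% of genes had a dye component of that size or more.

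Tnfsf10 encodes TRAIL, a ligand that can kill cells carrying death-domain receptors. Its ratio was 0.385 on the + polarity array and 0.330 on the turned - polarity array, past 2-fold on each. The mean was 0.357 ± 0.0395 (2.28-fold), and 2.61% of genes had a dye component of at least this size.

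Tnfsf11 encodes RANKL, the cytokine that drives osteoclast formation and supports dendritic cells and lymph node development. Its ratio was 0.247 on the + polarity array (1.77-fold) and 0.367 on the turned - polarity array (2.33-fold). The mean of 0.307 ± 0.0845 (2.03-fold) put it just inside the 2-fold threshold, and the + polarity array alone would not have called it. A dye component of at least this size was found in 4.36% of genes.

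The other 4 genes were not called. Tnfsf4, the OX40 ligand, was the highest of these, with a mean of 0.218 ± 0.218 (1.65-fold), below the threshold. Its ratio was 0.373 on the + polarity array and 0.0640 on the turned - polarity array, so it was past 2-fold on 1 array and close to 0 on the other. This was the widest spread of the 8, and 16.1% of genes had a spread at least as wide.

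Tnfsf8, the CD30 ligand, was the one gene with 2 probes. These gave 0.166 and 0.255 on the + polarity array, and 0.181 and 0.203 on the turned - polarity array. The probes lay on the same side on both arrays, and their mean was 0.201 ± 0.0132 (1.59-fold). Tnfsf14, which encodes LIGHT, a ligand of the herpesvirus entry mediator and of the lymphotoxin beta receptor, measured 0.121 on the + polarity array and 0.266 on the turned - polarity array, with a mean of 0.193 ± 0.102 (1.56-fold).

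Tnfsf12 encodes TWEAK, a ligand active in tissue repair and inflammation, and lay on the other side. The + polarity array gave -0.109 and the turned - polarity array -0.0945, with a mean of -0.102 ± 0.00995 (1.26-fold). This is a small ratio, and 25.0% of genes had a dye component of at least its size. Tnfsf12 overlaps the read-through gene Tnfsfm13 in RefSeq, and the probe may not tell their transcripts apart.

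**Figure D2:**
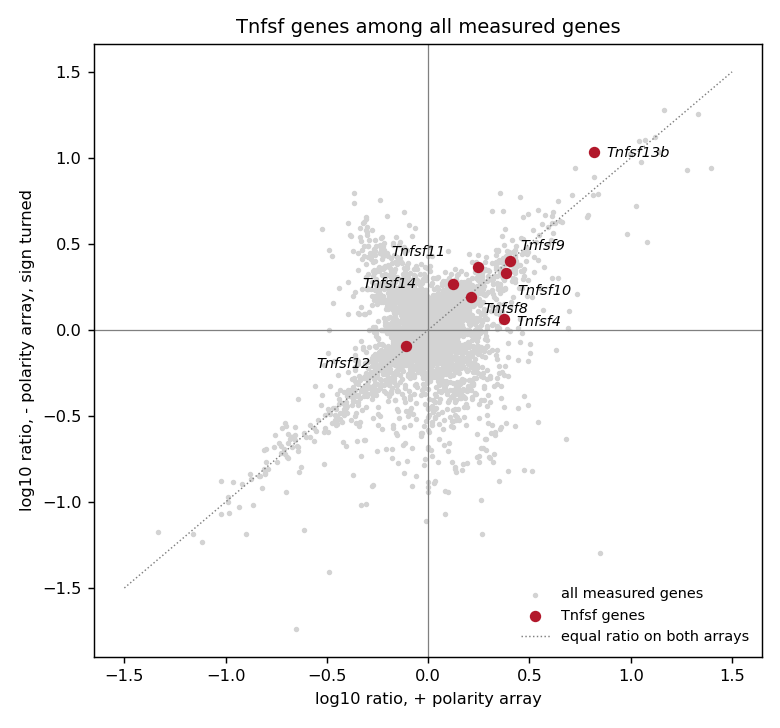
Every measured gene (grey) by its log10 ratio on the + polarity array (horizontal axis) and on the turned - polarity array (vertical axis), with the 8 Tnfsf genes in red; the dotted line marks equal ratios. Of the 8, 7 sit above and to the right of 0, Tnfsf13b farthest out and Tnfsf4 close to the horizontal axis.

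Set against one another, the genes fell into 1 gene well above a close group, with Tnfsf12 at the bottom. Tnfsf13b exceeded each of the other 7 on both arrays. The mean difference was 0.526 ± 0.156 (3.36-fold) to Tnfsf9, the next highest, and 1.03 ± 0.143 (10.7-fold) to Tnfsf12. Of all 28 pairs of genes, 23 kept 1 order on both arrays and 5 did not. Among the 7 pairs that are next to each other in the order of means, 3 had a difference larger than its SD. With 2 arrays such a pair always keeps its order on both, so the order is no separate support. The 3 pairs were Tnfsf13b over Tnfsf9, Tnfsf9 over Tnfsf10 (0.0442 ± 0.0368) and Tnfsf14 over Tnfsf12 (0.295 ± 0.0920). Tnfsf10 and Tnfsf11 differed by 0.0505 ± 0.124, Tnfsf11 and Tnfsf4 by 0.0886 ± 0.303, Tnfsf4 and Tnfsf8 by 0.0175 ± 0.205 and Tnfsf8 and Tnfsf14 by 0.00753 ± 0.115. The order within those 4 pairs was not the same on the 2 arrays.

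**Figure D3:**
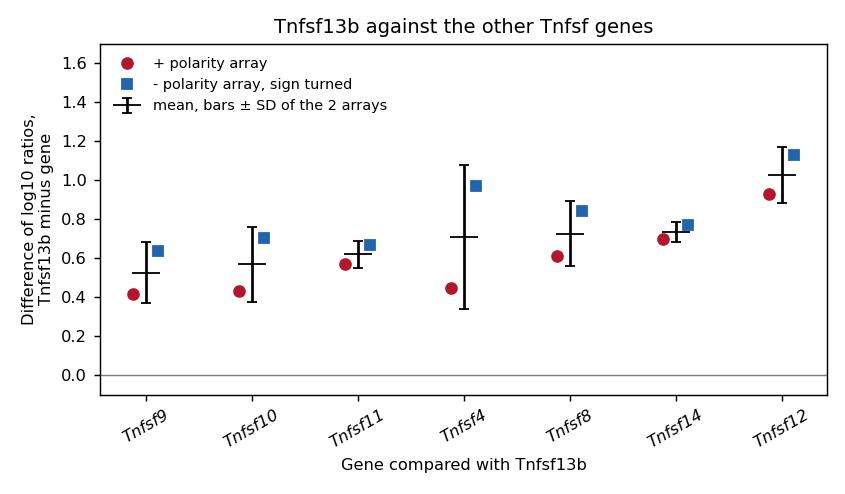
The difference of log10 ratios, Tnfsf13b minus each other Tnfsf gene, on the + polarity array (circles) and the turned - polarity array (squares), with the mean and ± SD of the 2 arrays. All 7 differences lie above 0 on both arrays, from a mean of 0.526 for Tnfsf9 to 1.03 for Tnfsf12.

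Of the TNF ligands whose symbols do not start with Tnfsf, 6 were measured and 1 was called, on the positive side. Over all genes 3.72% were called on that side, and 6 genes are too few to tell the count from this share. The median of the 6 mean ratios was 0.00766. The called gene was Fasl, the death ligand of cytotoxic lymphocytes, at 0.320 ± 0.00933 (2.09-fold), with 0.326 on the + polarity array and 0.313 on the turned - polarity array. Cd40lg, the ligand through which helper T cells activate B cells, had 0.228 and 0.177 on the same arrays and a mean of 0.203 ± 0.0359 (1.59-fold).

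Tnf itself, the inflammatory cytokine of the family, was at -0.0474 ± 0.0329. The lymphotoxin genes Lta (-0.0148 ± 0.0768) and Ltb (-0.0157 ± 0.0288) and the costimulatory ligand gene Cd70 (0.0302 ± 0.174) had opposite signs on the 2 arrays. Together with these, 14 ligand genes of the superfamily were measured, of which 5 were called on the positive side and 0 on the negative side. The shares over all genes were 3.72% and 5.03%. The 5 are Fasl and the 4 called Tnfsf genes already counted above. In RefSeq, Cd70 is the next protein-coding gene to both Tnfsf9 and Tnfsf14. The ratios of these 3 neighbours were 0.402 for Tnfsf9, 0.0302 for Cd70 and 0.193 for Tnfsf14.

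The list of receptors of the 4 called ligands had 10 genes, of which 6 were measured. Of these 6, 0 were called, where 8.75% of all genes were, a share too low for the count of so few genes to say anything about them. The means of the 6 were under 0 (median -0.0564). Tnfrsf9, which encodes CD137, the receptor of Tnfsf9, was at -0.0575 ± 0.333 from 2 probes. One probe was near 0 on both arrays, at -0.0568 (+ polarity) and -0.0542 (turned - polarity), and the other gave 0.413 and -0.532.

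Tnfrsf10b, the death receptor of TRAIL in the mouse, was at -0.0552 ± 0.0951. The RANKL receptor gene Tnfrsf11a was at -0.0756 ± 0.0753, and Tnfrsf11b, the decoy receptor osteoprotegerin, at -0.0367 ± 0.00758. Of the BAFF receptors, Tnfrsf13b (TACI) was at -0.0154 ± 0.267 and Tnfrsf17 (BCMA) at -0.113 ± 0.157. The BAFF receptor gene Tnfrsf13c was on the list but was not measured. The ratios of Tnfrsf9, Tnfrsf10b and Tnfrsf13b had opposite signs on the 2 arrays.

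Among 14 other measured TNF receptors, 2 were called on the positive side and 1 on the negative side, with a median of -0.000978. The shares over all genes were 3.72% and 5.03%, and counts this small cannot be set apart from them. Tnfrsf4, which encodes OX40, the receptor of Tnfsf4, had 0.618 on the + polarity array and 0.683 on the turned - polarity array (mean 0.650 ± 0.0456, 4.47-fold). Its ratio thus exceeded that of its ligand on both arrays. Tnfrsf18, the costimulatory receptor GITR, was at 0.424 ± 0.00325 (2.66-fold). Ltbr, the lymphotoxin beta receptor, which also binds LIGHT, was at -0.658 ± 0.0337 (4.55-fold), on the other side from Tnfsf14. Tnfrsf8 (CD30) at -0.0536 ± 0.169 and Tnfrsf12a, the TWEAK receptor, at -0.00356 ± 0.143 were added after their values were seen, as the receptors of Tnfsf8 and Tnfsf12, and neither had 1 sign on both arrays.

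Downstream of the receptors, the counts are read beside the 8.75% of all genes called in either direction. Lists of 14 and 11 genes are too small for their counts to be set apart from this share. Of 14 measured adaptors and regulators at the receptors, such as the TRAF proteins, FADD and caspase-8, 0 were called in either direction. Their median was 0.00494, and 11 of them had opposite signs on the 2 arrays. The largest mean in size was that of Traf4 at -0.206 ± 0.0392 (1.61-fold), named after its value was seen. Its 2 probes differed, with means of -0.317 and -0.0955, and the first of these alone would have met the rule. Of 11 measured NF-kB pathway genes, 0 were called on the positive side and 1 on the negative side, with a median of -0.0106. Over all genes these shares were 3.72% and 5.03%. Of the 11 means, 4 were above 0 and 7 below. The called gene was Nfkbiz, an inducible nuclear regulator of NF-kB, at -0.364 ± 0.0244 (2.31-fold), and its 2 probes had means of -0.369 and -0.360. Also named after their values were seen, Rel, an NF-kB subunit, was at -0.244 ± 0.0815 (1.75-fold) and Nfkbia, an inhibitor of NF-kB, at -0.178 ± 0.0298 (1.51-fold), and neither was called.

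Markers of the cell types a spleen sort could hold are given beside the ligands. Over all genes, 3.72% were called positive and 5.03% negative. Of 20 measured myeloid and dendritic markers, 13 were called on the negative side and 1 on the positive side (Ccr2), with a median of -0.542 and a range of -1.17 to 0.315. Of 10 NK markers, which share Fcgr3 with the myeloid list, 8 were called negative and 1 positive (Klrg1), with a median of -0.389. The 1 NK marker that was not called was Ncr1, at -0.0723 ± 0.0307. Whether the negative ratios of this list come from NK cells was not tested. Of 17 B cell and plasma cell markers, 4 were called negative and 1 positive (Prdm1), with a median of -0.148. These 3 lists thus lay mainly on the other side from the called Tnfsf genes.

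Of 11 T cell markers, 2 were called positive (Cd5 and Cd6) and 0 negative, with a median of 0.110 and a range of -0.185 to 0.614. This list left out the CD4 and CD8 coreceptor genes. Cd8a (-1.20 ± 0.767) and Cd8b1 (-1.18 ± 0.0820) were called negative, and Cd4 (0.0177 ± 0.0474) was not called. Of 8 stromal and endothelial markers, 1 was called positive (Cxcl13) and 0 negative, with a median of 0.0186. With 3.72% of all genes called positive, the counts of these 2 lists are too small to be set apart from that share. The part of other cell types in the ratios of the Tnfsf genes was not tested.

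**Figure D4:**
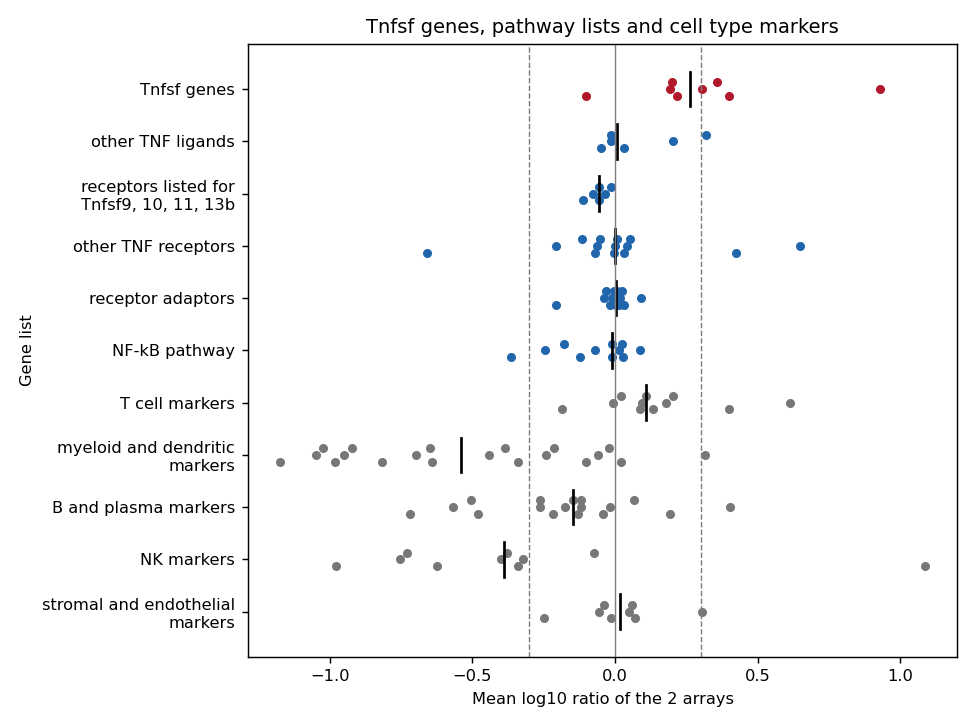
The mean log10 ratio of the 2 arrays (horizontal axis) for each measured gene of the Tnfsf family, of the pathway lists and of the cell type marker lists (rows); black bars are medians and dashed lines mark 2-fold. The Tnfsf median is 0.263, the medians of the other ligand, receptor and downstream lists lie between -0.0564 and 0.00766, and the myeloid and dendritic median is -0.542.

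The genes with the most similar pair of ratios were found by the distance between points in the plot of both arrays, over 2 arrays only. The nearest to Tnfsf13b were Stbd1 (distance 0.132), the granzyme gene Gzmb (0.145) and the T cell receptor segment Trbv1 (0.176). For Tnfsf9 they were Apaf1 (0.0105), Birc5 (0.0189) and the chemokine gene Ccl5 (0.0241). For Tnfsf10 they were Fkbp1b (0.0203), Tk1 (0.0273) and Cks1b (0.0281), and for Tnfsf11 Actn4 (0.00396), Cxcl13 (0.0105) and Zbtb7b (0.0109).

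Of the genes that were not called, Tnfsf4 had Cdkl3 (0.0227), Nmur1 (0.0348) and D130043K22Rik (0.0477) nearest to it. For Tnfsf8 these were Plk1 (0.00305), Xlr3c (0.00764) and Cenpk (0.00912). For Tnfsf14 they were Lgals3 (0.0205), Sec61g (0.0207) and Csk (0.0253), and for Tnfsf12 Mbnl1 (0.00385), Cmas (0.00557) and Tlr6 (0.00680).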

How the data were processed

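Total RNA of LAT3YF and wildtype cells was measured on 2 two-channel arrays. The authors deposited 1 log ratio for each probe of each array, with no base stated, which was read here as log10. The sources used here give neither the numerator nor the image analysis, background correction and normalization. Intensities were not analysed here, so dim probes could not be told from bright ones. Having 2 arrays limits the precision. Of 8014 probes, 4654 had 1 gene in the platform annotation and were used, 73 had several and 3287 had none listed. The - polarity array was multiplied by -1, probes of a gene were averaged, and the mean and SD of the 2 arrays were taken (Python 3.11.15, pandas 2.3.3, numpy 2.4.6). Calls used the rule of size at 2-fold, which was tested on simulated data. No test of the conditions was made. All Tnfsf genes, the other ligands and receptors of the called ligands, called members of the other lists and the 3 nearest genes were named. Called markers with a sign opposite to their list, the called T cell and stromal markers, Tnfrsf8, Tnfrsf12a, Traf4, Rel and Nfkbia were named after their values were seen. So were Cd4, Cd8a, Cd8b1 and Ncr1. Members, lists and motifs were chosen with earlier results of these data known. Alternatives were other logarithm bases, thresholds, centring, scaling, probe summaries and single arrays.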

Additional observations from a re-analysis of the deposited data

How the results depend on the processing

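Of the 8 Tnfsf genes, 4 were called with the arrays centred, centred and scaled, with other summaries of probes or with probes of several genes added. Each of the 4 has 1 probe, so another summary of probes could not change its value. With the largest probe of each gene, Tnfsf8 moved to 0.229 and was still not called. With the - polarity array alone the 4 were the same genes, and with the + polarity array alone Tnfsf4 replaced Tnfsf11, so the count was 4 in both cases. Where each array had to pass 2-fold on its own, 3 were called (Tnfsf13b, Tnfsf9 and Tnfsf10). At 1.5-fold 7 were called, all but Tnfsf12, and at 3-fold 1, Tnfsf13b. The count over all genes was 774 at 1.5-fold and 144 at 3-fold, against 379, and it ranged from 452 to 742 with single arrays. The base of the logarithm changed the calls. If the values were log2, 0 Tnfsf genes and 17 of all genes (10 positive, 7 negative) would be called, and the mean log10 ratios would be 0.279 for Tnfsf13b (1.90-fold), 0.121 for Tnfsf9, 0.108 for Tnfsf10 and 0.0924 for Tnfsf11. If they were natural logs, 1 Tnfsf gene (Tnfsf13b) and 62 of all genes would be called, with 0.403, 0.174, 0.155 and 0.133 for the same 4 genes. Scaling moved Tnfsf9 to 0.409. No called Tnfsf gene changed sign with centring or scaling. Another base or threshold cannot change a sign. Neither can a single array for a called gene, because a call needs 1 sign on both arrays. No paired analysis was possible because the 2 arrays form 1 dye-reversed pair.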
